A study of Asparagus officinalis with 3 samples.

Results

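Three-year-old garden asparagus plants of the cultivar "Grand", grown in a greenhouse, were sampled by sex, and RNA of their leaves, roots, stems and flowers was pooled. The comparison was of the female plants (XX) with the male plants (XY), as 1 small RNA library per sex. The pools hold all 4 organs of several plants, so organs and plants cannot be told apart. A degradome library, which captures the cut ends of mRNAs, was made from 1 pool of both sexes, and its reads were not analysed here. The values described are those of 3 candidate miRNAs, aof-miRn08, aof-miRn13 and aof-miRn14, out of 194 listed miRNAs, of which 40 are candidates and 154 belong to conserved families. They were selected on a degradome result: 4 candidates stand in the study's list of cleaved targets, and these 3 remain when aof-miRn39, a longer form of a conserved sequence, is set aside. The study's text counts more candidates with targets than the list used here holds. It also names aof-miRn06 and aof-miRn17, which are not in that list. That list puts its cleavages by these 3 candidates in its class of lowest read support. The cleavages are therefore not given as a finding below, and the expression values and the deposited target pairs are descriptions.

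Plant miRNAs are cut by a Dicer-like enzyme out of a hairpin in a longer transcript, and the duplex that leaves the hairpin holds the miRNA and the opposite arm. The miRNA guides an ARGONAUTE protein to RNAs with near-complete complementarity, which are cut opposite the middle of the miRNA. Because the 5′ end sets the seed, usually read as the bases 2 to 8, a shift of the start changes the pairing register, while a change of the 3′ end leaves it. The first base also matters: in Arabidopsis thaliana, AGO1 mostly binds sequences with a 5′ U, AGO2 and AGO4 mostly those with a 5′ A, and AGO5 mostly those with a 5′ C. Candidate miRNAs are those without a conserved family, and their functions are mostly unknown.

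The mature sequences are shown first, 5′ to 3′, with the seed in capitals, since they show which candidates are forms of one another. Aof-miRn09 and aof-miRn15 are included as the listed sequences with the same 5′ end, and so the same seed.
aof-miRn08: aGCGGGGUguucugauccaua
aof-miRn09: aGCGGGGUguucugauccauacaa
aof-miRn13: cAGACGGUcggcgggcugaa
aof-miRn14: cAGACGGUcggcgggcugaau
aof-miRn15: cAGACGGUcggcgggcugaauc

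Aof-miRn13 has 20 nt and aof-miRn14 is the same sequence with 1 more base at the 3′ end, so that the 3 candidates come down to 2 seeds. The seed of aof-miRn08 was found in 2 listed miRNAs, aof-miRn08 and the longer aof-miRn09. The seed of aof-miRn13 and aof-miRn14 was found in 3, these and aof-miRn15. Neither seed was found in any of the 154 conserved miRNAs. The longest stretch that aof-miRn08 shared with a conserved miRNA was 5 nt, with aof-miR394, and that of aof-miRn13 and aof-miRn14 was 6 nt, with aof-miR168i. This lack of likeness follows in part from the selection. Candidates have no conserved family, and aof-miRn39 was set aside as a longer form of a conserved sequence.

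None of the 3 begins with U. Aof-miRn08 begins with A, as do 12 of the 40 candidates and 5 of the 154 conserved miRNAs. Aof-miRn13 and aof-miRn14 begin with C, as do 13 candidates and 17 conserved miRNAs, whereas U stands first in 10 candidates and 115 conserved miRNAs. The share of G and C was 52.4% in aof-miRn08, 70% in aof-miRn13 and 66.7% in aof-miRn14. The median was 61.9% over the candidates and 57.1% over the conserved miRNAs.

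Both hairpins lie in unigenes, which are transcript sequences assembled from expressed sequence tags and pyrosequencing reads of the transcriptome. No genome position is given. The study places aof-miRn08 at nt 155 to 243 of UN45561, aof-miRn13 at nt 19 to 237 of UN07381 and aof-miRn14 at nt 19 to 238 of the same unigene. The hairpins of aof-miRn08 and aof-miRn14 are shown with the mature sequence in capitals, to make the difference in arm and loop visible.
Hairpin of aof-miRn08 in UN45561: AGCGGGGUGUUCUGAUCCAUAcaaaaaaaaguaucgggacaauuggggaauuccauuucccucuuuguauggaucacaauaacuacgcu
Hairpin of aof-miRn14 in UN07381: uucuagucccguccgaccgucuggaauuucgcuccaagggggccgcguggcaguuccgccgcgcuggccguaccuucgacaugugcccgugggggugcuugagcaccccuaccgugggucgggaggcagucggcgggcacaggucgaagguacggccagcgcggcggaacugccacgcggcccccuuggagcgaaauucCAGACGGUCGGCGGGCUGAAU

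Aof-miRn08 forms the 5′ arm of its hairpin, at positions 1 to 21 of 89 nt, whereas aof-miRn13 and aof-miRn14 form the 3′ arm of theirs, from position 200 to 219 and 220. On refolding, 19 of the 21 bases of aof-miRn08 were paired, 2 of them in G:U pairs, and the bases at positions 5 and 12 were unpaired. In aof-miRn13, 18 of 20 bases were paired and positions 19 and 20 were not. In aof-miRn14, 20 of 21 bases were paired and only position 21 was not. The folding energy was -30.5 kcal/mol for the hairpin of aof-miRn08, against -213.2 and -213.4 kcal/mol for those of aof-miRn13 and aof-miRn14. Corrected for length and GC content as the MFEI (minimal folding energy index), the values were 0.824, 1.42 and 1.42. Of all bases of the hairpin, 69.7% were paired for aof-miRn08, 89.5% for aof-miRn13 and 90.9% for aof-miRn14.

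The deposited values, called TPM, are reads of a unique sequence scaled to a common library size (RPM), with no correction for its length. Aof-miRn08 had 5.03 TPM in the female library, against 1.88 TPM in the male one. Aof-miRn13 had 9.15 TPM in the female library, against 12.39 TPM in the male one. Aof-miRn14 had 23.32 TPM in the female library, against 31.69 TPM in the male one. One library stands for each sex, so there is no spread between plants, no p-value was computed, and a difference between the libraries is not shown to be one between the sexes. Fewer cells with a miRNA and less of it per cell cannot be told apart in such pools.

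How precisely so low values were counted can be read from the values themselves. Up to 60 TPM, the female library has 157 values, and 99.4% of them fell within 0.0051 TPM of a whole number of steps of 0.229 TPM. The male library has 162, and 99.4% fell equally close to steps of 0.157 TPM. If 1 such step is 1 read, aof-miRn08 rests on 22 reads in the female library, against 12 in the male one. Aof-miRn13 then rests on 40 reads in the female library, against 79 in the male one, and aof-miRn14 on 102 and 202. The library totals that such steps imply exceed the numbers of final clean reads that the study gives, so it is not certain that a step is a read. The exact 95% intervals given below rest on these steps and cover counting error only, not PCR copies or variation between plants. They also take no account of the minimum value that a sequence needed to be listed.

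The order aof-miRn08, aof-miRn13, aof-miRn14 from low to high was the same in both libraries. In the female library the counting intervals of aof-miRn08 (3.15 to 7.62 TPM) and aof-miRn13 (6.53 to 12.5 TPM) overlapped, and that of aof-miRn14 (19.0 to 28.3 TPM) lay above both. In the male library the 3 intervals, 0.973 to 3.29, 9.81 to 15.4 and 27.5 to 36.4 TPM, did not overlap. Among the 40 candidates, aof-miRn08 stood at rank 33 in the female library and at rank 40, the lowest, in the male library. Aof-miRn13 stood at ranks 24 and 18, and aof-miRn14 at ranks 9 and 7. The median candidate had 10.3 TPM in the female library, against 11.3 TPM in the male one.

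Aof-miRn08 was 2.68-fold higher in the female library (log2 ratio 1.42, counting interval of the ratio 1.27 to 5.92). This interval does not allow for the 5 TPM that a sequence needed to be listed. That it leaves out equal values is therefore not read as a result. Aof-miRn13 had a female to male ratio of 0.738 (log2 ratio -0.44), with a counting interval of 0.491 to 1.09 that includes equal values. Aof-miRn14 had a ratio of 0.736 (log2 ratio -0.44), with a counting interval of 0.574 to 0.938. The remaining candidate of the degradome list, aof-miRn39, had 109 TPM in the female library, against 103 TPM in the male one, a ratio of 1.06 (0.940 to 1.19).

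With a 2-fold ratio as the call, aof-miRn08 was the only one of the 3 past it. The same was true of 30.9% of all 194 listed miRNAs in either direction, and of 18% in the direction of the female library. Among the 70 miRNAs under 10 TPM in both libraries it was true of 37.1%, and among the 40 candidates of 15%. Over all listed miRNAs the median log2 ratio was 0.18, with 112 higher in the female library, against 82 in the male one. Over the candidates it was -0.06, with 17 higher in the female library, against 23 in the male one.

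At its male value of 1.88 TPM, aof-miRn08 could not have been listed without passing the 2-fold call. To be listed a sequence had to reach 5 TPM in one library, besides matching a known miRNA or a predicted hairpin, so a sequence with 1.88 TPM in the male library could be listed only with a ratio of at least 2.66, and aof-miRn08 had 2.68. Its 22 steps are the fewest that reach the minimum in the female library, where 1 step fewer gives 4.80 TPM. In only 2 listed miRNAs did the larger of both values lie under 5.03 TPM. All 26 listed miRNAs with the lower value under 2.5 TPM, 2 of them candidates, were over 2-fold apart, as the minimum requires, against 34 of the other 168 (20.2%). Sequences under 5 TPM in both libraries are not in the list.

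**Figure D1:**
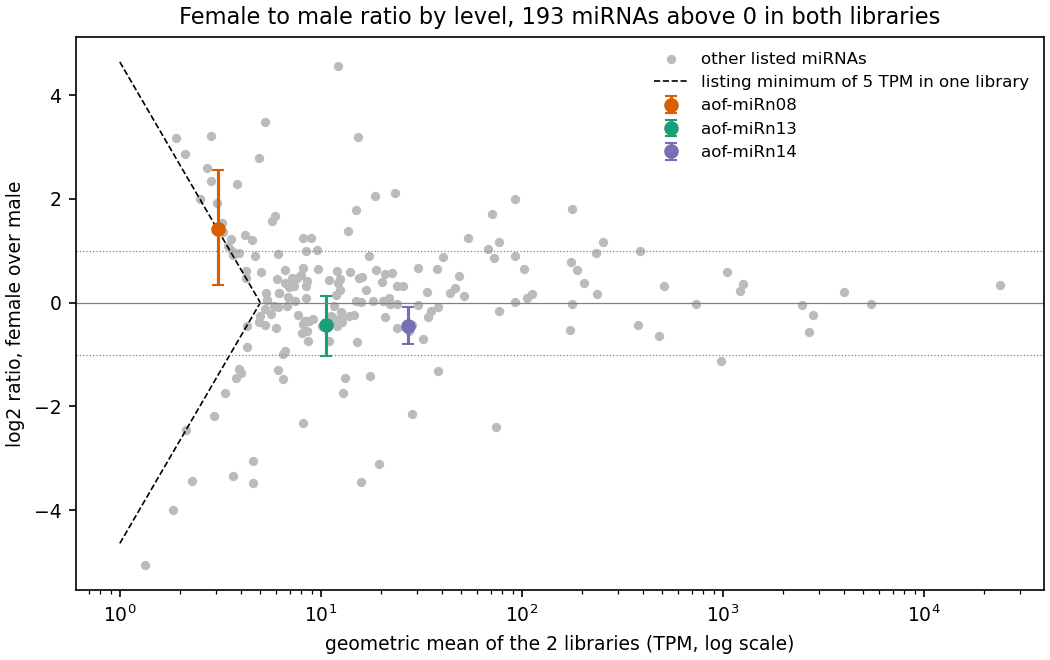
Log2 of the female over the male value (y axis) against the geometric mean of both libraries in TPM (x axis, log scale) for the 193 miRNAs above 0 in both; dashed lines mark the ratio that the minimum of 5 TPM in one library requires at each level, dotted lines a 2-fold ratio, and bars the 95% counting interval. Aof-miRn08 lies on the dashed line at a log2 ratio of 1.42, and aof-miRn13 and aof-miRn14 lie inside the dotted lines at -0.44.

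By the summed difference of their log2 values in the 2 libraries, the miRNAs most like aof-miRn08 outside its own hairpin were aof-miR166e-4, with 5.49 TPM in the female library, against 1.88 TPM in the male one, and aof-miR168d, with 5.26 and 2.04 TPM. Those most like aof-miRn13 were aof-miR396a-3p, with 8.69 and 11.92 TPM, and aof-miRn22, with 10.29 and 12.71 TPM. Aof-miRn14 was followed at a greater distance by aof-miR159a-1, with 29.95 and 31.06 TPM, and aof-miR166l-3, with 23.78 and 24.16 TPM. The distances were 0.13 and 0.18 for aof-miRn08, 0.13 and 0.21 for aof-miRn13, and 0.39 and 0.42 for aof-miRn14. Likeness over 2 values says little more than that the levels are alike.

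Both hairpins gave more than the sequences named so far. At UN45561, 3 candidates are listed, and they cover a stretch of 29 nt. At UN07381, 18 candidates are listed, all of them windows of a stretch of 30 nt with 8 different start positions and 6 different end positions. The stretches are shown with aof-miRn08 and aof-miRn14 in capitals.
Stretch of UN45561: augcgAGCGGGGUGUUCUGAUCCAUAcaa
Stretch of UN07381: cgaaauucCAGACGGUCGGCGGGCUGAAUc

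At UN45561, aof-miRn08 was the least abundant of the 3 forms. Aof-miRn09, which is 3 nt longer at the 3′ end, had 9.83 TPM in the female library, against 3.29 TPM in the male one, a ratio of 2.99 (1.73 to 5.29). Aof-miRn10, which starts 5 nt earlier and so has another seed, had 18.98 TPM in the female library, against 13.49 TPM in the male one, a ratio of 1.41 (1.03 to 1.92). All 3 were higher in the female library, as were 17 of all 40 candidates and 112 of all 194 listed miRNAs, these 3 included. Both forms with the start of aof-miRn08 summed to 14.86 TPM in the female library, against 5.17 TPM in the male one, a ratio of 2.87 (1.86 to 4.51). Like aof-miRn08, aof-miRn09 reached the minimum of 5 TPM in the female library only. Its male value lies above 2.5 TPM, however, so the minimum did not require its ratio to pass 2-fold. At a male value under 5 TPM, aof-miRn09 still could not have been listed with equal values. That its interval and that of the sum of both forms leave out equal values is therefore not read as a result. The 3 listed forms of the hairpin summed to 33.84 TPM in the female library, against 18.66 TPM in the male one, a ratio of 1.81 (1.41 to 2.33). Forms under 5 TPM in both libraries are not in this sum, and its interval does not allow for the minimum either. Aof-miRn08 made up 14.9% of the sum in the female library, against 10.1% in the male one.

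At UN07381, the 18 windows summed to 256.99 TPM in the female library, against 315.15 TPM in the male one, a ratio of 0.815 (0.757 to 0.878). Of these overlapping windows, 12 of the 18 were higher in the male library. Over all 40 candidates, these 18 included, it was 23. Aof-miRn13 held 3.56% of the sum in the female library, against 3.93% in the male one, and aof-miRn14 held 9.07% and 10.1%. Among the 18, aof-miRn14 stood at rank 3 in the female library and at rank 4 in the male library, and aof-miRn13 at ranks 14 and 10. The most abundant window, aof-miRn15, has the same start with 1 base more than aof-miRn14. It had 25.15 TPM in the female library, against 40.94 TPM in the male one, a ratio of 0.614 (0.487 to 0.770). The 3 forms with this start summed to 57.62 TPM in the female library, against 85.02 TPM in the male one, a ratio of 0.678 (0.581 to 0.788).

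**Figure D2:**
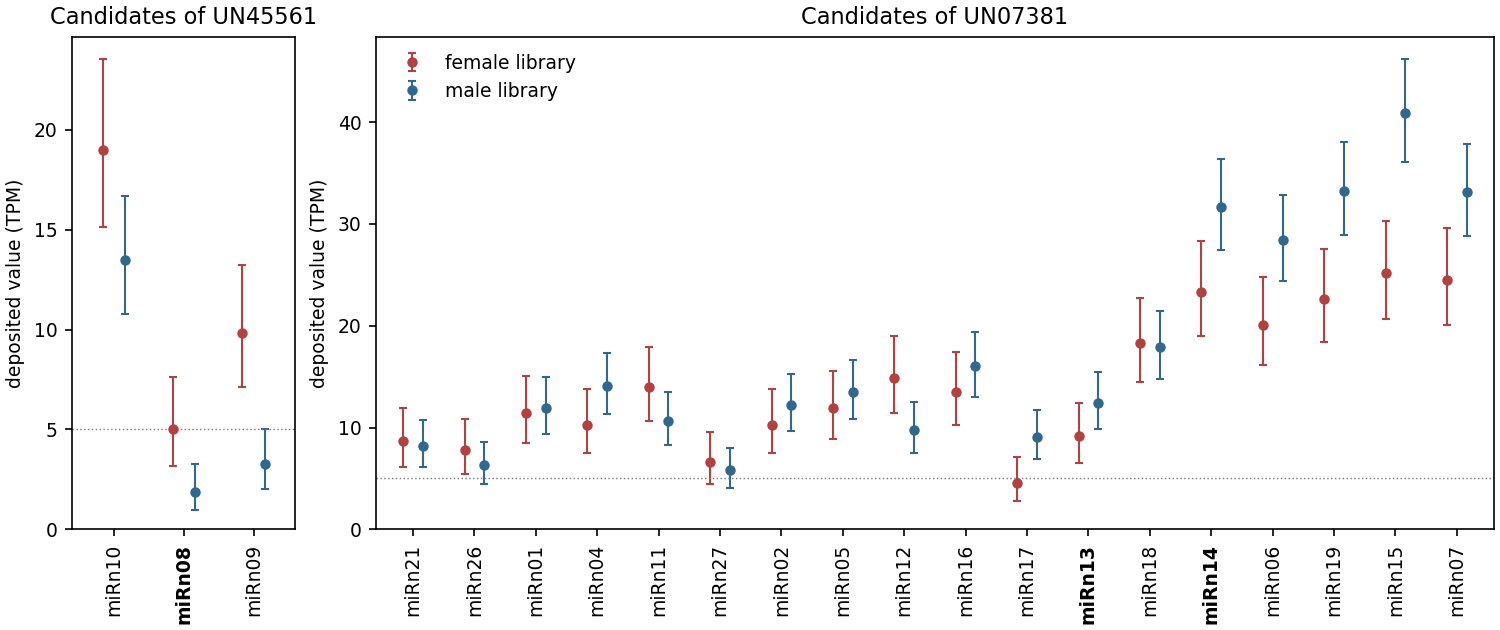
Deposited values in TPM (y axis) of each candidate listed at UN45561 (left) and UN07381 (right), with the female library left of the male library and bars for the 95% counting interval; windows are ordered by their last and first base, and the dotted line marks 5 TPM. All 3 forms of UN45561 were higher in the female library, while 12 of the 18 forms of UN07381, with aof-miRn13 and aof-miRn14 among them, were higher in the male library.

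The 18 windows fell into 9 that end at nt 24 or 25 of the stretch and 9 that end at nt 27 or later, to which aof-miRn13 (nt 9 to 28) and aof-miRn14 (nt 9 to 29) belong. This split was chosen after the values were seen, and the windows overlap. The ratios, intervals and counts of its sides, also with windows left out, are descriptions and no support for a contrast between them. It is a split by start as well, since the earlier-ending windows start at nt 1 to 5 and the later-ending ones at nt 8 to 10. Start and end therefore cannot be told apart in it. The later-ending windows summed to 161.19 TPM in the female library, against 222.75 TPM in the male one, a ratio of 0.724 (0.660 to 0.793). Of these 9, 8 were higher in the male library, the exception being aof-miRn18 with 18.29 TPM in the female library, against 17.88 TPM in the male one. Without aof-miRn13 and aof-miRn14 the other 7 had a ratio of 0.720 (0.650 to 0.798). The earlier-ending windows summed to 95.8 TPM in the female library, against 92.4 TPM in the male one, a ratio of 1.04 (0.913 to 1.18), and 4 of the 9 were higher in the male library. The study lists 5 of the 18 at a further unigene, UN09382, and all 5 belong to the earlier-ending windows, so aof-miRn13 and aof-miRn14 are listed at UN07381 alone.

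**Figure D3:**
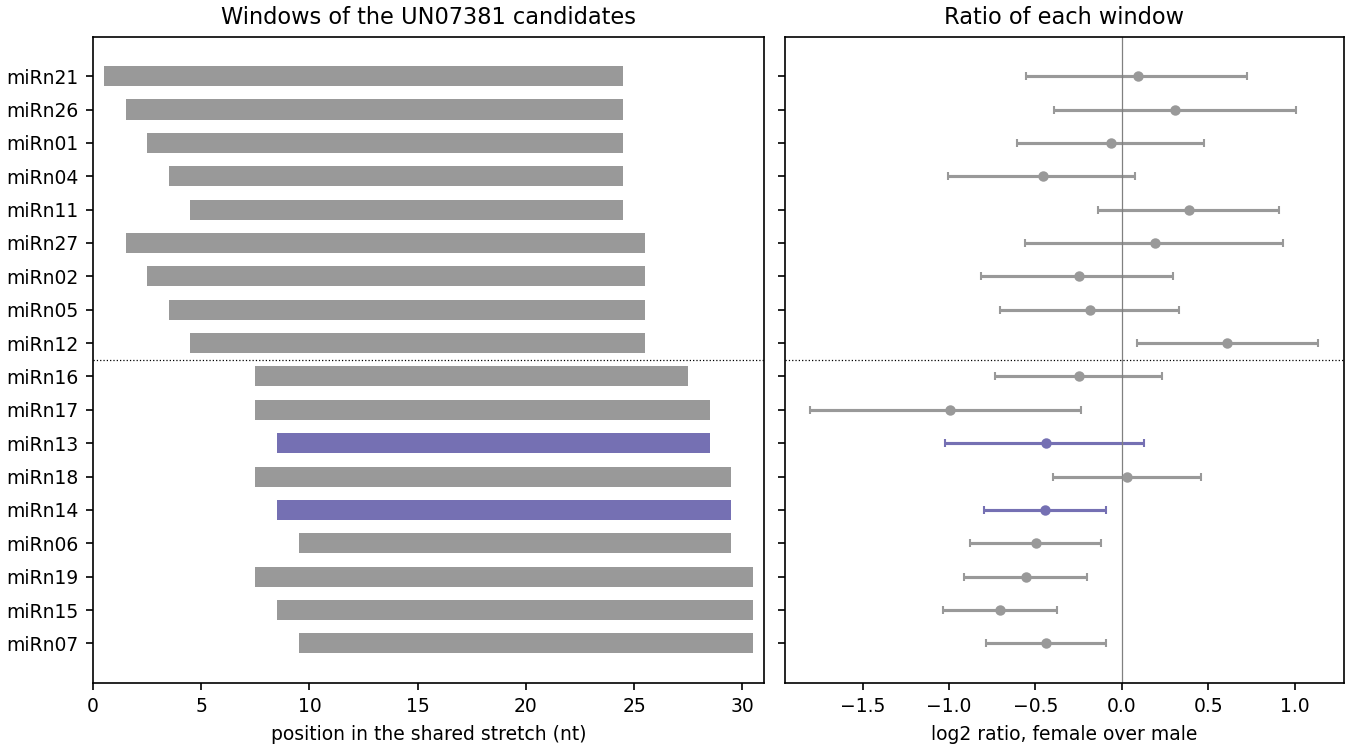
Left, the part of the shared 30-nt stretch that each of the 18 candidates of UN07381 covers (x axis, nt from the start of the stretch), and right, the log2 of its female over its male value with the 95% counting interval; aof-miRn13 and aof-miRn14 are coloured, and the dotted line parts windows ending before nt 27 from the others. Below that line 8 of 9 windows lay left of 0, above it 4 of 9. The line was placed after the values were seen.

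The second deposited table pairs miRNAs with sites in unigenes. It holds 463 pairs of 130 miRNAs with 194 unigenes, each with a score from 0.5 to 3. The score was rebuilt in 463 of 463 pairs as 1 for a mismatch, 0.5 for a G:U pair and 2 for a base without a partner, so a lower score means closer pairing. The 3 candidates have 21 pairs with 14 unigenes. The degradome list names UN02508 for aof-miRn08 and UN01290 for aof-miRn13 and aof-miRn14, and neither is among the pairs of these miRNAs in this table. For aof-miRn39, all 3 unigenes of the degradome list are.

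Aof-miRn08 was paired with 5 unigenes, with scores of 2 to 3. The sites are shown 5′ to 3′ as the strand that pairs with the miRNA, with bases that do not form a Watson-Crick pair in capitals.
UN35700: uauggUucagaacaccccgcA
UN51222: uauggCucagaacacUcUgcu
UN00802 and UN25708: uauggCucagaacacUUUgcu
UN10223: uauggUucagaacacUUcAcu

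All 5 sites of aof-miRn08 are mismatched at position 16 of the miRNA, counted from its 5′ end. The site of UN35700 (score 2) has a further mismatch at position 1. That of UN10223 (score 3) has one at position 3 and 2 G:U pairs. UN51222 (score 2) has 2 G:U pairs as well, and UN00802 and UN25708 (score 2.5) have 3. All G:U pairs lie in the seed. The bases opposite positions 10 and 11, between which plant miRNAs usually cut, were paired in all 5. The site lies on the plus strand in 2 unigenes and on the minus strand in 3. None of the 5 unigenes has a protein match in the table. Aof-miRn09 and aof-miRn10 were paired with UN25708 as well, and the 3 forms of the hairpin together with 6 unigenes.

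Aof-miRn13 was paired with 7 unigenes, with scores of 1 to 2, and aof-miRn14 with 9, with scores of 1 to 3. All 7 unigenes of aof-miRn13 were among those of aof-miRn14 (7 of 9), and none was shared with aof-miRn08. The sites fall into 4 forms, shown for the miRNA with the lower score and with the same use of capitals. Where the site lacks a base, no capital can mark it.
UN36514, to aof-miRn13: uucagcccgccgaccguAug
UN07354, UN07360, UN07392, UN25940 and UN48326, to aof-miRn13: uucUagcccgccgaccgucug
UN43326, to aof-miRn13: uucagccgccgaccgucug
UN07369 and UN44129, to aof-miRn14: Uuucagcccgccgaccgucug

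The site of UN36514 (score 1) has a single mismatch, at position 3 in the seed. The site common to 5 unigenes (score 2) pairs with all 20 bases of aof-miRn13 but has an extra base between the partners of positions 17 and 18. The site of UN43326 (score 2) has no base opposite position 15. To aof-miRn14, the 5 unigenes with the extra base have a score of 3, with a further mismatch at its added base, position 21. UN07369 and UN44129 (score 1) are mismatched at position 21 alone. As with aof-miRn08, positions 10 and 11 were paired in every site. No share over all pairs is given here, and a low score leaves few unpaired bases. Pairing at these positions is therefore not read as support for cleavage.

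**Figure D4:**
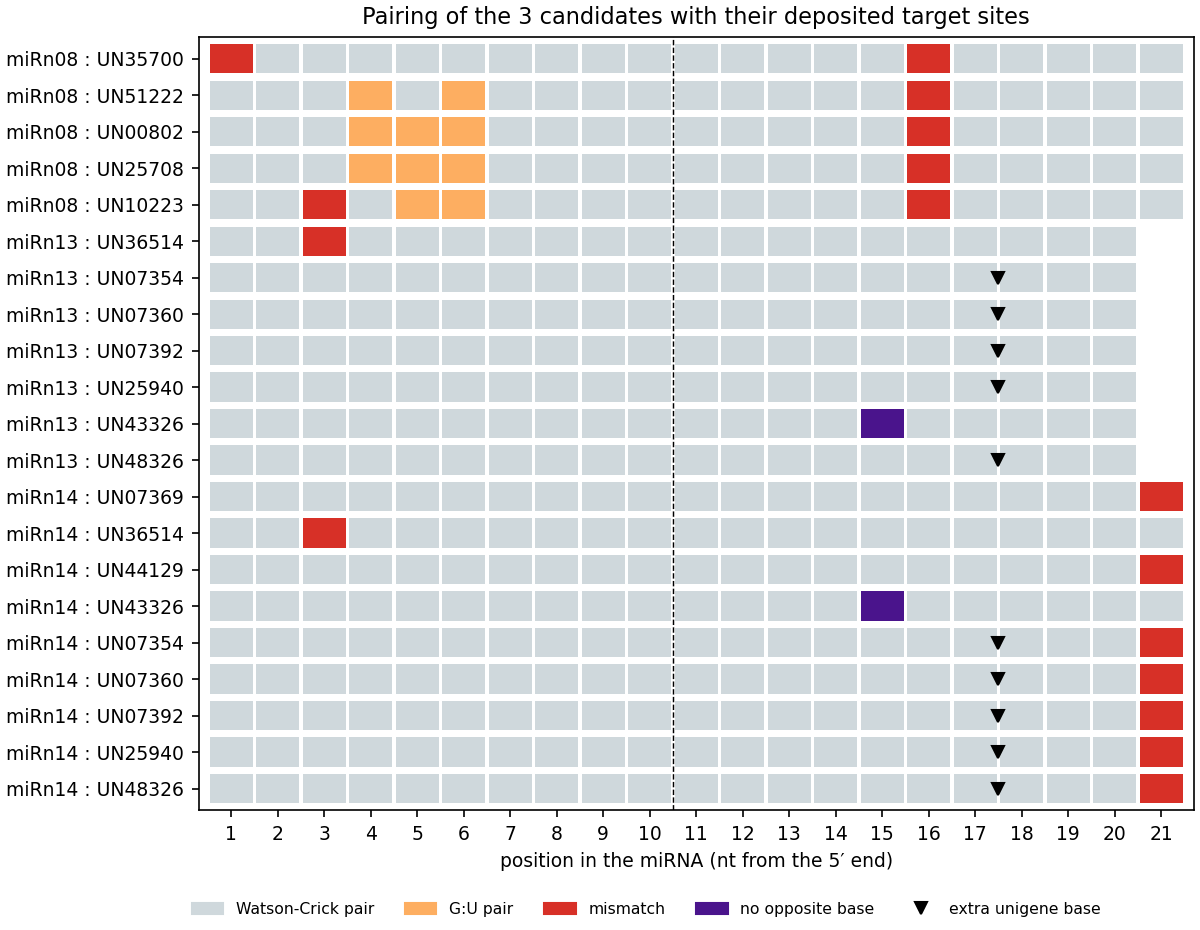
State of each base of aof-miRn08, aof-miRn13 and aof-miRn14 (x axis, position from the 5′ end) in its 21 deposited pairs (rows); the dashed line lies between positions 10 and 11. The 5 pairs of aof-miRn08 share the mismatch at position 16 and carry all their G:U pairs at positions 4 to 6, and the pairs of aof-miRn13 and aof-miRn14 hold no G:U pair.

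The opposite arm of a hairpin nearly complements its miRNA, as a target site does, so sites and arms were compared. The arms opposite aof-miRn14 and aof-miRn08 are shown to set beside the sites above, and each site was compared with the closest stretch on the other side of the hairpin.
Arm opposite aof-miRn14: uucuagucccguccgaccgucug
Arm opposite aof-miRn08: uauggaucacaauaacuacgcu
The site common to 5 unigenes differed from this arm of UN07381 by 2 edits (bases changed, added or removed), and from the exact complement of aof-miRn13 by 1. The aof-miRn13 sites of UN36514 and UN43326 differed from the arm by 4 edits. The 9 sites of aof-miRn14 differed from its opposite arm by 3 to 5 edits, and the 5 sites of aof-miRn08 from its own by 6 to 7. The opposite arm itself differed from the exact complement by 5 edits for aof-miRn08, 3 for aof-miRn13 and 4 for aof-miRn14.

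Of the 9 unigenes of aof-miRn13 and aof-miRn14, the site lies on the plus strand in 8 and on the minus strand in UN07354, at nt 308 to 329 for aof-miRn14. In all 8 it starts within the first 50 nt of the unigene. The same held for 0 of the 2 plus-strand unigenes of aof-miRn08, for 6 of 72 of the conserved miRNAs and for 2 of 15 of the candidates of other unigenes than UN07381. Unigene sequences were not searched here, so the site positions are those of the table.

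The 18 candidates of UN07381 have 150 pairs, 71.4% of all candidate pairs, with 27 unigenes. UN36514 was paired with 15 of the 18 and UN43326 with 14, while each of the other 7 unigenes of aof-miRn13 and aof-miRn14 was paired with 6. Of the 14 unigenes of the 3 candidates, only UN07392 has a protein match, to the ATP synthase subunit beta of Medicago truncatula, a part of the catalytic head of the enzyme that makes ATP. Conserved miRNAs were paired with 147 unigenes, of which 101 have a protein match, and with none of the 14. Over all pairs the median score was 2 for candidates and 3 for conserved miRNAs, against 2.5 for aof-miRn08, 2 for aof-miRn13 and 3 for aof-miRn14.

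Sites listed for other miRNAs also held exact complements of aof-miRn13 and aof-miRn14. This was the case for aof-miRn13 in 5 unigenes, UN04541, UN07369, UN25773, UN28917 and UN44129, and for aof-miRn14 in 3, UN04541, UN25773 and UN28917. For aof-miRn08 it was the case in 0. Over all listed miRNAs there were 42 such pairs, and no pair of the table has a score of 0, the score of an exact complement. With these added, aof-miRn13 and aof-miRn14 would each have a site in 12 unigenes, and these 12 are the same.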

How the data were processed

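Small RNAs were measured in 1 pooled library per sex. Per the study's methods, the authors trimmed adapters, dropped poor or short reads and reads of structural RNAs, and took unique sequences of 20 to 24 nt with 5 TPM in one library, of which they deposited those identified as conserved or candidate miRNAs, as RPM (called TPM). The scores deposited by the authors belong to miRNA and unigene alignments by a program that the table does not name. Hairpin sequences and degradome unigene names were taken from the study's supplementary lists.

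The members and lists were chosen with earlier results of these data known. Named were the 3 candidates, all candidates of their hairpins, the 2 miRNAs nearest to each in both libraries, aof-miRn39, and all target unigenes. Ratios of the deposited values were taken without a pseudocount, and called past 2-fold. Fisher's exact and chi-square tests of reads, which the methods name, were not run, since the values are not reads and each sex has 1 library. If 1 step of the low values is 1 read, the libraries were scaled to 4373600 reads (female) and 6374775 reads (male), more than the final clean reads that the study gives. Intervals are exact 95% Poisson intervals for values and exact conditional binomial intervals for ratios. Hairpins were refolded with RNAfold 2.7.2. Python 3.11.15, numpy 2.4.6, scipy 1.17.1, pandas 2.3.3 and matplotlib 3.10.9 were used. The step search and the ratio intervals were tested on simulated data without a listing minimum, so the interval of aof-miRn08 was not tested under it. Alternatives were pseudocounts of 1 and 5 TPM, rescaling by the median ratio or the summed values, sums over forms, a 3-fold call, a minimum of 10 TPM and stricter scores.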

Additional observations from a re-analysis of the deposited data

How the results depend on the processing

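The log2 ratios of aof-miRn08, aof-miRn13 and aof-miRn14 kept their sign in 18 of 18 settings. This count is no measure of robustness, since an equal pseudocount cannot change a sign. Rescaling could only lower aof-miRn13 and aof-miRn14 further here, and both share the same sums over forms. With 5 TPM added to both values aof-miRn08 had a log2 ratio of 0.54. Summed over the listed forms of its hairpin the log2 ratio was 0.86, so aof-miRn08 was no longer over 2-fold apart in either. Its values in the other settings ran from 1.07 to 1.52. Aof-miRn13 ran from -0.61 to -0.29 and aof-miRn14 from -0.62 to -0.29. The median of all listed miRNAs lay at a log2 ratio of 0.18, and relative to it the 3 candidates stood at 1.24, -0.61 and -0.62.

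The count of listed miRNAs over 2-fold apart was 60, and 35 at a 3-fold threshold, 32 with 5 TPM added and 34 with a minimum of 10 TPM. The target unigenes of aof-miRn08 numbered 2 at a highest score of 2, and those of aof-miRn14 numbered 4 at a highest score of 2 or 2.5, while aof-miRn13 kept its 7. By construction, the sums fell with fewer sequences. At UN45561 they were 5.03 TPM in the female library, against 1.88 TPM in the male one with 21-nt sequences only, and 18.98 and 13.49 TPM with that minimum. At UN07381 they were 77.5 TPM in the female library, against 97.74 TPM in the male one with 21-nt sequences only, and 229.33 and 285.82 TPM with that minimum.

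No paired analysis was possible because each sex has 1 library, so there was no replicate to leave out. Depth limits aof-miRn08 most, at 22 steps in the female library, against 12 in the male one. Variation between plants, organs and library preparations was not measured.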
